A study of Mus musculus with 22 samples.

Results

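PRDM16 was delivered to the brown fat of wild-type mice with a virus, and the transcriptome of that fat was set against the fat of wild-type mice that had received GFP. The comparison holds 6 of the 22 libraries of the series. Libraries were placed in it by their sample labels, as WT + AAV-PRDM16 (mice 63, 64 and 80) or WT + AAV-GFP (mice 56, 65 and 89), and no measured value was used in the choice. All 6 animals were CPEB2-WT males on a C57BL/6 background, born to heterozygous crosses, so none lacked the translational regulator CPEB2. Each received 20000000000 viral genomes of AAV2/8 in 30 µl, given at 10 µl per site into the interscapular brown adipose tissue (BAT) at 16 weeks of age, and the tissue was taken 9 weeks later, at 25 weeks. The AAV-PRDM16 virus carried the mouse PRDM16 coding region with a 3Xflag tag, and the control virus carried GFP. The insert sat in the pAAV-MCS vector, and no adipocyte-specific promoter is stated.

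The study asked whether PRDM16 supplied to BAT eases the weight gain of mice that lack CPEB2, and it profiled the BAT of both genotypes afterwards. PRDM16 is a zinc finger transcriptional regulator that drives the brown adipocyte program. It works with PPARγ, C/EBPβ, PGC-1α and EBF2 at genes of thermogenesis and mitochondrial respiration. With CtBP and the methyltransferase EHMT1 it holds other programs down, including muscle genes. The study cites earlier work in which PRDM16 held down interferon-stimulated genes in brown and white adipocytes through competition with the factor IRF1. BAT burns fatty acids to heat through the uncoupling protein UCP1, and it also holds endothelial cells, nerves, macrophages and, in smaller numbers, lymphocytes.

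The mRNA libraries were deep. Counts on genes summed to between 109857168 and 143005309 in the AAV-GFP mice and to between 85664107 and 110754370 in the AAV-PRDM16 mice. Genes of the mitochondrial genome took 29.7% to 33.2% of the counts in these 6 libraries, and the 10 most abundant genes 32.4% to 36.3%. Levels are given as CPM, counts scaled to a common library size, after TMM scaling, so they compare a gene between libraries and not one gene with another. The 3 markers of brown adipocytes with the highest levels, *Ucp1*, *Cidea* and *Kcnk3*, exceeded 300 CPM in all 6 libraries. Markers of lymph node stroma summed to between 0.388 and 1.29 CPM. Markers of skeletal muscle fibres summed to 0.143 to 0.454 CPM in 5 libraries and to 16.3 CPM in AAV-PRDM16 mouse 64.

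*Prdm16*, at chr4:154316125-154636873 on the minus strand of GRCm38, was measured at 23.9, 40.2 and 35.8 CPM in AAV-GFP mice 56, 65 and 89, and at 122, 119 and 45.9 CPM in AAV-PRDM16 mice 63, 64 and 80. Every AAV-PRDM16 library lay above every AAV-GFP library, but mouse 80 stood only 1.14 times above the highest control, while mice 63 and 64 stood far above. The group means were 95.6 ± 43.1 and 33.3 ± 8.42 CPM (SD, n = 3 each), a ratio of 2.87. Against the control mean, mice 63 and 64 were 3.62-fold higher and mouse 80 was 1.38-fold higher. The log2 fold change was 1.52 ± 0.34 (SE), with an FDR of 0.459 in edgeR and an adjusted p of 0.00164 in DESeq2. An exact permutation test over the 6 mice gave p = 0.1, two-sided, the smallest it allows. The virus carried the coding region of the same gene, so viral and endogenous *Prdm16* transcripts cannot be told apart in these counts, and GFP was not among the genes counted.

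*Cpeb2* itself differed little between the groups. Its levels were 12.7, 13.96 and 10.53 CPM with AAV-GFP and 12.9, 13.3 and 10.47 CPM with AAV-PRDM16, which overlap throughout. The ratio of the means was 0.983, and the exact permutation p was 0.9, two-sided.

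Across the transcriptome, 18899 genes were tested, and their median log2 fold change was -0.01, with 47.9% of genes above 0. edgeR's quasi-likelihood test, fitted on all 12 AAV libraries, called no gene at an FDR of 0.05, and the smallest FDR was 0.286. At an unadjusted p under 0.05 it listed 1377 genes (7.29%), of which 396 (2.1%) were higher and 981 (5.19%) lower with AAV-PRDM16. DESeq2 called 152 of the 17412 genes to which it gave an adjusted p (0.873%), and 18 of these rose (0.103%) while 134 fell (0.77%). This split rested in part on control mouse 65: DESeq2 called 54 higher and 66 lower without it, against 9 to 24 higher and 29 to 293 lower when any other of the 6 libraries was left out. The levels of the groups did not overlap for 2675 genes (14.2%), 1208 of them higher (6.39%) and 1467 lower (7.76%). At the thresholds that the study used for another cohort, a 2-fold difference and an FDR of 0.5, the edgeR fit gave 275 genes (1.46%), 28 higher (0.148%) and 247 lower (1.31%). Because edgeR called 0 genes, a gene is written below as having risen or fallen only where DESeq2 called it, and with that tool named.

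**Figure D1:**
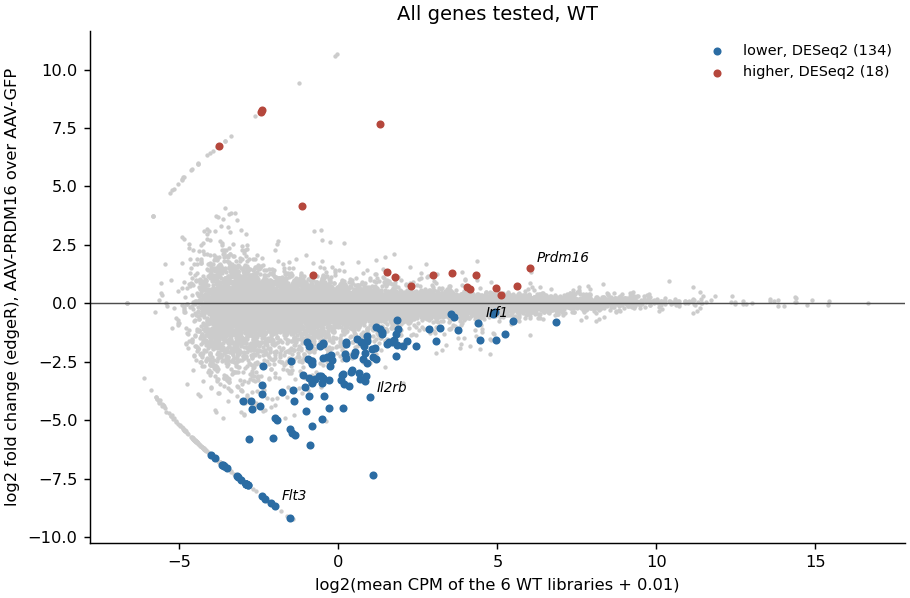
Each point is 1 of the 18899 genes tested, with log2 of its mean CPM over the 6 WT libraries (plus 0.01) on the horizontal axis and the edgeR log2 fold change of AAV-PRDM16 over AAV-GFP on the vertical axis. The 134 genes called lower by DESeq2 (blue) outnumber the 18 called higher (red), and 72 of the 134 had a mean under 1 CPM. The curved arms at the lower and upper left are genes with counts in 1 group only, whose fitted fold change is not a bound.

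The genes that DESeq2 called higher were few and mostly of moderate size. Of the 18, 15 code for proteins, and the median log2 fold change was 1.21. The groups did not overlap in 15, beside 6.39% of all genes higher without overlap, but the calls rest on the same libraries. Beside *Prdm16*, those above 1 CPM with established symbols and no overlap were *Tmem254c*, *Tmem254b*, *Ephb2*, *Eml1*, *Slc43a2*, *Gab2*, *Cables1*, *Msantd3* and *Pak1ip1*. Lack of overlap was required for naming them, so it adds no support where it is described below. None of the 18 belonged to the immune gene lists described below. These lists hold 4 to 44 tested genes each out of 18899, so 0 of 18 says little.

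*Slc43a2*, a transporter of large neutral amino acids, was at 32.9, 45.6 and 31.6 CPM with AAV-GFP and at 69.5, 59.3 and 56.4 CPM with AAV-PRDM16. All 3 treated mice exceeded all 3 controls, and DESeq2 called the gene higher (log2 fold change 0.75 ± 0.19, adjusted p = 0.028). *Gab2*, an adaptor that links receptors to PI3K and Ras signalling, was at 11.7, 13.6 and 12.1 CPM against 24.9, 18.1 and 18.8 CPM. These groups were also apart, with mouse 63 the highest (log2 fold change 0.72 ± 0.17, DESeq2 adjusted p = 0.0135).

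*Ephb2*, a receptor for membrane-bound ephrins, was at 1.42, 2.91 and 2.07 CPM in the controls and at 5.91, 4.27 and 3.73 CPM in the treated mice. Its log2 fold change was 1.12 ± 0.30, and DESeq2 gave an adjusted p of 0.0434. *Eml1*, a microtubule-associated protein, was at 3.28, 3.25 and 4.35 CPM against 6.63, 5.199 and 6.45 CPM. Both genes separated the 6 libraries without overlap.

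*Tmem254c* was at 5.81, 7.58 and 7.20 CPM with AAV-GFP and at 25.2, 14.5 and 11.4 CPM with AAV-PRDM16. Its near-identical copy *Tmem254b* was at 3.63, 6.09 and 4.51 CPM against 16.2, 8.41 and 8.39 CPM. The treated mice were above the controls for both, with mouse 63 the highest, but reads of copies this alike could have been split between them in the counting, so the pair is uncertain as single genes. DESeq2 gave an adjusted p of 0.00467 for *Tmem254c* and of 0.0498 for *Tmem254b*.

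Smaller differences had narrow spreads. *Msantd3* was at 12.5, 15.7 and 13.1 CPM against 22.4, 18.5 and 22.7 CPM (log2 fold change 0.62 ± 0.13, DESeq2 adjusted p = 0.00528). *Cables1*, an adaptor of cyclin-dependent kinases, was at 21.7, 30.0 and 20.5 CPM against 48.9, 32.5 and 32.5 CPM (0.66 ± 0.17, DESeq2 adjusted p = 0.0434). *Pak1ip1*, which takes part in ribosome biogenesis, was at 29.9, 31.1 and 30.2 CPM against 44.5, 35.5 and 38.4 CPM (0.38 ± 0.09, DESeq2 adjusted p = 0.0264). In each, as their choice required, the lowest treated mouse exceeded the highest control. *Lamtor1* and *Nabp1*, just short of the DESeq2 threshold, were also chosen among genes without overlap. *Lamtor1*, the lysosomal anchor of the Ragulator complex, was at 39.0, 49.4 and 41.5 CPM against 61.9, 56.9 and 52.7 CPM (DESeq2 adjusted p = 0.0644), and *Nabp1*, a single-stranded DNA binding protein, at 46.5, 52.9 and 47.4 CPM against 98.3, 66.4 and 63.1 CPM (0.0632).

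The genes called lower included genes of lymphocytes and of the response to interferon-γ. The 134 genes called lower by DESeq2 had a median log2 fold change of -2.99. Of these, 115 code for proteins, 11 are immunoglobulin or T cell receptor segments and 31 belong to one of 14 immune gene lists. The groups did not overlap in 119 of the 134, beside 7.76% of all genes lower without overlap, but the calls rest on the same libraries. The 14 lists hold 4 to 44 tested genes each out of 18899, and the share of all genes that they hold together was not counted. In bulk tissue, fewer cells of a type and less RNA per cell cannot be told apart.

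Genes of T cells and of cytotoxic lymphocytes had the lowest medians of the 42 lists. All 25 members of the T cell list had a log2 fold change under 0, with a median of -3.09 beside -0.01 over all genes. Unadjusted edgeR p-values were under 0.05 and lower for 23 members, DESeq2 called 13 lower, and 14 did not overlap between the groups. By these measures, in the same order, 5.19%, 0.77% and 7.76% of the genes tested were lower. The same shares stand beside the list counts below. The 24 genes of cytotoxic lymphocytes, which carry the killing machinery and receptors of CD8 T cells and natural killer cells, had a median of -3.58, with all 24 under 0, 18 at an unadjusted p under 0.05, 7 called lower by DESeq2 and 8 without overlap.

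*Cd3e*, a signalling chain of the T cell receptor complex, was at 0.457, 3.46 and 1.77 CPM in AAV-GFP mice 56, 65 and 89 and at 0.386, 0.0885 and 0.212 CPM in AAV-PRDM16 mice 63, 64 and 80. The control mice themselves spread widely: mouse 56 lay close to the treated mice, and mice 65 and 89 well above. The log2 fold change was -3.05 ± 0.75, with a DESeq2 adjusted p of 0.00467. *Cd3g*, another chain of the complex, was at 0.188, 2.81 and 1.59 CPM against 0.140, 0 and 0.0675 CPM, without overlap.

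The coreceptor *Cd8a* was at 0.188, 3.53 and 1.97 CPM with AAV-GFP and at 0.211, 0.166 and 0.202 CPM with AAV-PRDM16. Here the groups overlapped, since control mouse 56 was within the treated range, and DESeq2 called the gene lower at an adjusted p of 0.00848. *Cd4* was at 0.278, 3.24 and 1.90 CPM against 0.328, 0.431 and 0.251 CPM, and was not called (DESeq2 adjusted p = 0.613). *Lck*, the kinase that starts T cell receptor signalling, showed the same arrangement of mice, with 0.215, 3.80 and 1.86 CPM against 0.292, 0.310 and 0.125 CPM (DESeq2 adjusted p = 0.0185).

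*Il2rb*, the shared β chain of the receptors for interleukin-2 and interleukin-15, had 0.466, 7.29 and 3.40 CPM in the controls and 0.211, 0.299 and 0.183 CPM in the treated mice. No treated mouse reached the lowest control, and the log2 fold change was -4.01 ± 0.90 (DESeq2 adjusted p = 0.00393). The inhibitory receptor gene *Pdcd1* was at 0.143, 2.13 and 0.838 CPM in the controls, at 0.0468 CPM in mouse 63, and at 0 in mice 64 and 80. DESeq2 called it lower, with an adjusted p of 0.00175.

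*Ncr1*, a receptor of natural killer cells, was at 0.0717, 0.353 and 0.312 CPM in the controls and at 0 in all 3 treated libraries, which makes it at least 22.9-fold lower by means, taking 3 counts over the treated group as the floor. The granzyme gene *Gzmk* was at 0 in control mouse 56, at 0.386 and 0.358 CPM in mice 65 and 89, and at 0 in every treated library, so by the same floor it was at least 23.1-fold lower but did not separate every mouse. Floors and counting intervals cover counting error only. In all, 22 genes called by DESeq2 were at 0 counts in every AAV-PRDM16 library.

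Other lymphocyte and leukocyte genes with a mean of at least 1 CPM that DESeq2 called lower and that did not overlap were *Serpina3g*, *Lyz1*, *Gimap3*, *Ms4a4b*, *Ikzf3*, *Cd52*, *Spn*, *Rac2*, *Cyfip2* and *Selplg*. *Ikzf3* encodes the lymphoid transcription factor Aiolos, *Gimap3* a GTPase of lymphocyte survival, *Spn* and *Selplg* are surface sialoglycoproteins of leukocytes, and *Rac2* is a small GTPase of blood cells. *Rac2* was at 1.52, 5.61 and 4.16 CPM with AAV-GFP and at 0.702, 0.675 and 0.819 CPM with AAV-PRDM16. Lack of overlap was required for naming these genes, so the gap between control mouse 56 and the treated mice adds no support. The log2 fold change of *Rac2* was -2.36 ± 0.50 (DESeq2 adjusted p = 0.000625). The others had log2 fold changes from -4.47 for *Serpina3g* to -2.28 for *Selplg*.

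The size of the T cell difference rested on control mice 65 and 89. The 6 defining T cell markers summed to 1.39 CPM in mouse 56, 17.7 CPM in mouse 65 and 9.53 CPM in mouse 89, against 1.53, 1.11 and 0.858 CPM in the treated mice. Leaving out 1 wild-type library at a time, the median of the T cell list stayed between -3.60 and -2.37. The number of T cell and cytotoxic genes called by DESeq2, 13 and 7 with all libraries, came to 1 in all without mouse 65, to 2 without mouse 89 and to 31 without mouse 56. It was 13, 13 and 8 without treated mice 63, 64 and 80. These reruns were chosen after seeing the data.

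**Figure D2:**
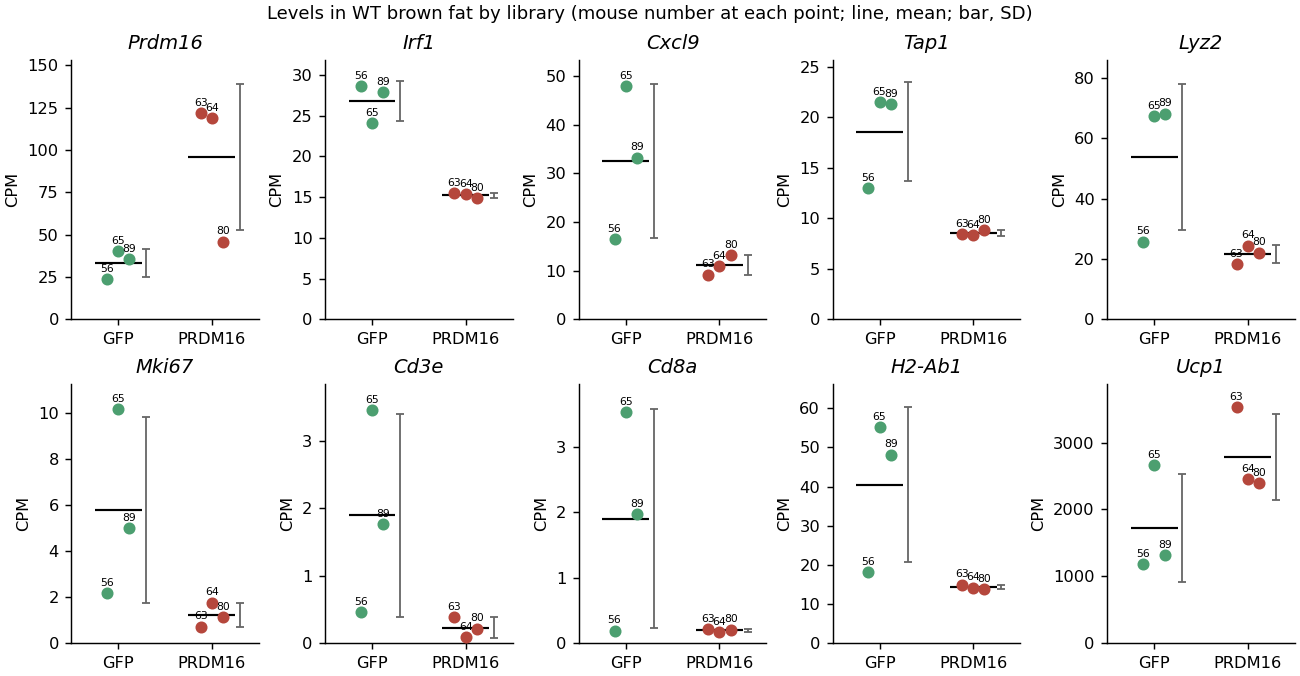
Levels in CPM of 10 genes in the 3 AAV-GFP and 3 AAV-PRDM16 WT libraries, each point 1 mouse with its number, the line the group mean and the bar to its right 1 SD on each side. *Irf1* and *Tap1* separate the groups with a tight spread in the treated mice, while for *Cd3e* and *Cd8a* control mouse 56 lies beside the treated mice, and *Ucp1* overlaps between the groups.

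Antigen presentation genes were lower as well. MHC class II molecules, which display peptides to CD4 T cells, are made by macrophages, dendritic cells and B cells. All 11 tested genes of that list had a log2 fold change under 0, with a median of -1.34. Of these, 9 had an unadjusted p under 0.05 and 6 did not overlap (all genes, 5.19% and 7.76% lower), and DESeq2 called 0. *H2-Ab1* was at 18.1, 55.2 and 48.2 CPM with AAV-GFP against 14.9, 14.1 and 13.8 CPM with AAV-PRDM16. The treated mice lay within a narrow band below the lowest control, with a log2 fold change of -1.50 ± 0.45 (edgeR FDR 0.468, DESeq2 adjusted p = 0.157). The invariant chain gene *Cd74* was at 44.6, 122 and 115 CPM against 35.2, 40.1 and 36.1 CPM, again without overlap. *Ciita*, the master regulator of class II transcription, was at 1.497, 5.505 and 3.62 CPM against 0.959, 1.29 and 0.646 CPM.

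The MHC class I list, whose products display peptides on nearly all cells, had a smaller median of -0.58 over 27 genes. Of these, 26 were under 0, 11 had an unadjusted p under 0.05 and 8 did not overlap (all genes, 5.19% and 7.76% lower). DESeq2 called 1 lower, *Tap1*, the peptide transporter of this pathway. *Tap1* was at 13.0, 21.5 and 21.3 CPM in the controls and at 8.46, 8.36 and 8.84 CPM in the treated mice. All 3 treated values lay close together and below every control (log2 fold change -1.12 ± 0.26, DESeq2 adjusted p = 0.00608). *H2-D1*, a heavy chain gene, was at 265, 365 and 441 CPM against 196, 229 and 253 CPM, and *B2m*, the light chain, at 188, 282 and 328 CPM against 153, 171 and 205.1 CPM. The first did not overlap, the second did, and neither was called.

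The guanylate-binding proteins and immunity-related GTPases are cell-autonomous defence proteins that interferon-γ induces strongly. All 18 tested members were under 0, with a median log2 fold change of -1.04. Of these, 13 had an unadjusted p under 0.05 and 4 did not overlap (all genes, 5.19% and 7.76% lower), and DESeq2 called 2 lower. Without control mouse 65 the median was -0.55, 17 members were under 0 and 4 had an unadjusted p under 0.05, and without control mouse 56 the median was -1.37 and 15 did not overlap. *Gbp2* was at 21.2, 68.5 and 49.97 CPM with AAV-GFP and at 13.3, 13.6 and 20.4 CPM with AAV-PRDM16. The highest treated mouse, 80, came just under control mouse 56, and the log2 fold change was -1.56 ± 0.40 (DESeq2 adjusted p = 0.00704). *Gbp2b*, the other gene called, was at 0.0986, 2.25 and 0.914 CPM against 0, 0 and 0.0771 CPM.

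The remaining large members overlapped. *Iigp1* was at 11.4, 90.1 and 32.4 CPM in the controls and at 13.1, 5.78 and 11.2 CPM in the treated mice, so mouse 56 fell among the latter. *Gbp6* was at 24.7, 93.5 and 48.7 CPM against 35.4, 28.6 and 26.6 CPM. *Igtp* behaved alike, with 6.19, 52.2 and 22.8 CPM against 8.54, 6.57 and 8.09 CPM. In these 3 genes, control mouse 56 was below the highest treated mouse.

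*Irf1* was the gene with the smallest edgeR FDR of all 18899 (0.286). It encodes a transcription factor that interferon-γ induces and that then acts on MHC class I and other defence genes. *Irf1*, at chr11:53770014-53778374 on the plus strand, was at 28.6, 24.04 and 27.9 CPM with AAV-GFP and at 15.5, 15.3 and 14.9 CPM with AAV-PRDM16. Unlike the T cell genes, it was high in all 3 controls, mouse 56 included, and the treated mice were nearly identical. The means were 26.8 ± 2.45 and 15.2 ± 0.316 CPM (SD, n = 3 each), and the log2 fold change was -0.82 ± 0.12. DESeq2 called *Irf1* lower at an adjusted p of 2.65e-06, and in the 6 DESeq2 runs that each left out 1 wild-type library its adjusted p stayed under 0.05, the highest being 0.000887. limma-voom with sample weights called it as its only gene, at an adjusted p of 0.0372. In the list of 9 interferon regulatory factors, the median was -0.59, 3 were lower at an unadjusted p under 0.05, and DESeq2 called *Irf1* alone.

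Promoter windows were read for this group because its members were lower together. As background, interferons act through 2 short motifs. The GAS motif, TTCNNNGAA, is the interferon-γ activated site, and the core of the interferon-stimulated response element (ISRE), which is GAAA, any pair of bases and GAAA again, binds IRF family factors. In RefSeq promoter windows of GRCm38.p6, from 250 bases before to 50 bases after each start, read on both strands, GAS letters stood in 8.30% and ISRE core letters in 3.44% of all 32851 windows. Letters of both motifs were also sought before the start of *Tap1*, *Cxcl9*, *Ccr2*, *Aim2*, *Lyz2* and *Cd3e*, all called lower by DESeq2. None gave a stretch, though a gene without a window could give none. The 3 stretches below are shown because they hold these letters at *Irf1* and at both GBP genes that DESeq2 called. Capitals mark the motif, which in the GBP genes reads on the opposite strand.
Irf1: acagcctgatTTCCCCGAAatgatgaggcc
Gbp2: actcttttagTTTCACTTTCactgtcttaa
Gbp2b: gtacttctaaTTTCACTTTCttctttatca

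The *Irf1* stretch is chr11:53769914-53769943, with the motif beginning 90 bases before the start. The *Gbp2* stretch is chr3:142620594-142620623, 59 bases before, and the *Gbp2b* stretch is chr3:142594700-142594729, 137 bases before, all on the plus strand. Of the 18 GBP and IRG genes, 10 had a window, and the ISRE core stood in all 10 and the GAS motif in 6. The ISRE core stood in 5 of 21 MHC class I windows, in 1 of 19 chemokine windows and in 0 of 14 T cell windows. The GAS motif stood in 2, 0 and 2 of these windows, in the same order. In the broader interferon-stimulated list, of which DESeq2 called 0 genes, 16 of 32 windows held the ISRE core and 5 the GAS motif. A match of letters describes the window and shows no binding, and no cause of the lower levels was tested.

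Broader interferon-stimulated genes differed less. The list of 44, most of which type I interferon induces, had a median log2 fold change of -0.35, with 40 members under 0. Of the 44, 4 were lower at an unadjusted p under 0.05, beside 5.19% of all genes. Without overlap, 10 were lower, beside 7.76% of all genes, and DESeq2 called 0. *Rsad2*, an antiviral enzyme, was at 11.4, 11.3 and 11.2 CPM against 12.6, 10.1 and 8.83 CPM, and the double-stranded RNA kinase gene *Eif2ak2* at 21.2, 22.5 and 22.8 CPM against 21.7, 20.0 and 20.2 CPM. Both overlapped, with log2 fold changes of -0.11 and -0.10. Among 22 nucleic acid sensors the median was -0.33, and DESeq2 called *Aim2* alone, a cytosolic DNA sensor at 0.538, 1.44 and 0.799 CPM against 0.0819, 0.210 and 0.212 CPM (adjusted p = 0.0225).

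Chemokines and their receptors had a median of -1.50 over 29 genes, with 25 under 0. At an unadjusted p under 0.05, 14 were lower (all genes, 5.19%). Without overlap, 9 were lower (all genes, 7.76%) and 1 was higher. DESeq2 called 4 of them lower. *Cxcl9*, which attracts activated T cells and is induced by interferon-γ, was at 16.4, 48.0 and 33.2 CPM with AAV-GFP and at 9.21, 11.0 and 13.2 CPM with AAV-PRDM16. Every treated mouse was under every control (log2 fold change -1.55 ± 0.36, DESeq2 adjusted p = 0.00294). *Ccr2*, the receptor by which monocytes enter tissue, was at 2.61, 10.0 and 6.37 CPM against 1.73, 1.56 and 2.17 CPM, again apart (-1.80 ± 0.46, DESeq2 adjusted p = 0.00963). *Ccl5*, a chemokine of T cells and natural killer cells, was at 0.188, 2.03 and 1.55 CPM against 0.199, 0.0774 and 0.0867 CPM, where mouse 56 fell beside treated mouse 63.

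Macrophage genes were lower by a smaller margin. Of 23 tested, 22 were under 0, with a median of -1.01, and 13 had an unadjusted p under 0.05. In 11 the groups did not overlap (all genes, 5.19% and 7.76% lower), and DESeq2 called 1, the lysozyme gene *Lyz2*. It was at 25.8, 67.5 and 68.2 CPM in the controls and at 18.4, 24.4 and 22.1 CPM in the treated mice. The groups stood apart by a small gap between control mouse 56 and treated mouse 64 (log2 fold change -1.31 ± 0.38, DESeq2 adjusted p = 0.0347). *Adgre1*, which encodes F4/80, was at 2.67, 4.74 and 5.34 CPM against 1.84, 2.37 and 2.01 CPM, and *Csf1r*, the receptor that macrophages need to survive, at 7.20, 11.1 and 11.6 CPM against 5.47, 6.94 and 5.07 CPM. Both separated the mice without being called. *Mrc1*, a marker of resident macrophages, differed by a log2 fold change of -0.53 ± 0.24, and *Cd68* overlapped at 1.47, 2.98 and 3.72 CPM against 1.33, 1.98 and 2.40 CPM.

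Dendritic cell genes had a median of -1.48 over 12 genes, all under 0. At an unadjusted p under 0.05 there were 6, with 4 without overlap (all genes, 5.19% and 7.76% lower) and 2 called lower by DESeq2. *Flt3*, the growth factor receptor of this lineage, was at 0.0896, 0.793 and 0.548 CPM with AAV-GFP and at 0 in all 3 treated libraries, at least 44.5-fold lower by means with 3 counts over the group as the floor. B cell genes had a median of -0.74 over 17 genes, with 2 lower at an unadjusted p under 0.05, beside 5.19% of all genes. Without overlap, 4 were lower, beside 7.76% of all genes, and DESeq2 called 0. The B cell median was -1.72 without treated mouse 64, and the dendritic cell median was -2.30 without treated mouse 80.

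The immune counts at an unadjusted p under 0.05 leaned on control mouse 65. Without it they were 18 for T cells, 12 for cytotoxic lymphocytes, 5 for MHC class II, 3 for MHC class I, 11 for chemokines, 6 for macrophages, 3 for dendritic cells and 1 for the interferon-stimulated list. The medians without it were -1.11 for MHC class II, -0.51 for MHC class I, -1.03 for chemokines, -0.72 for macrophages, -0.96 for dendritic cells and -0.22 for the interferon-stimulated list. For MHC class I the count was also 4 without control mouse 89, 4 without treated mouse 63 and 5 without treated mouse 64, and for macrophages it was 6, 7 and 8 without mice 89, 63 and 80. For the GBP and IRG list it was 8 without mouse 64.

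**Figure D3:**
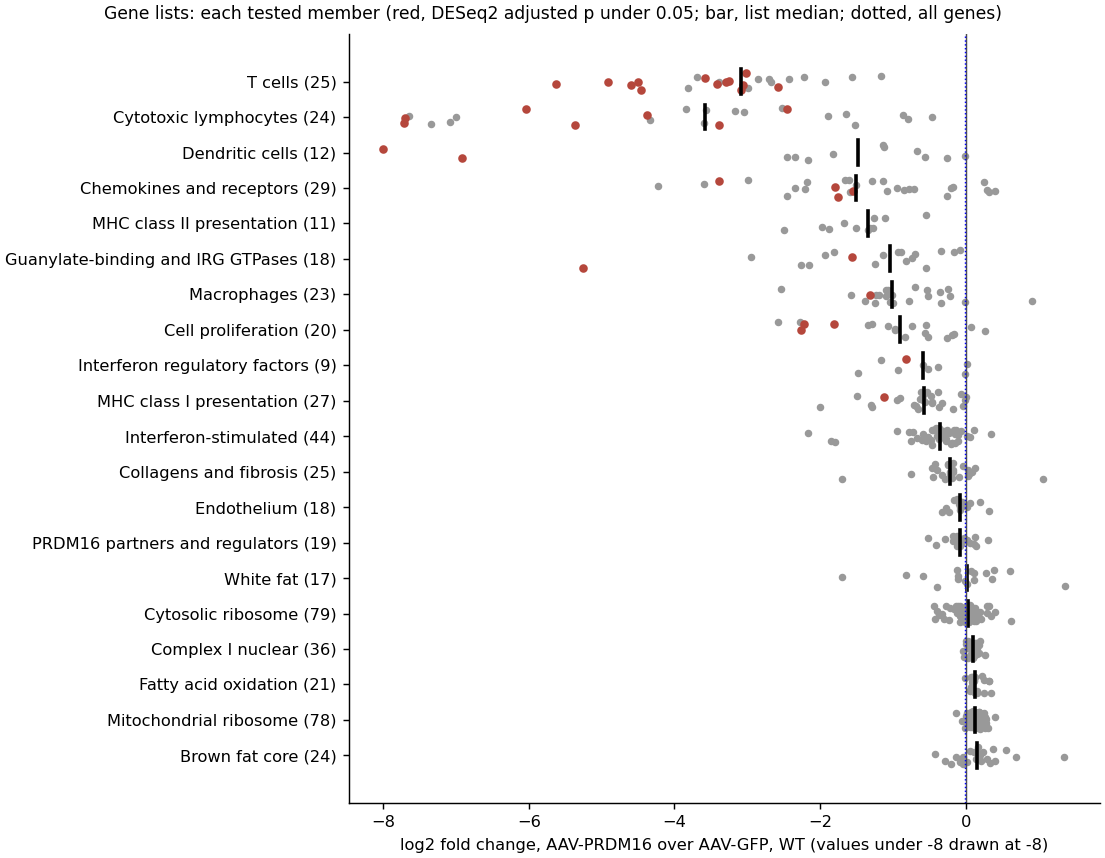
Each point is a tested gene of 1 of 20 lists (number tested in parentheses), placed by its edgeR log2 fold change of AAV-PRDM16 over AAV-GFP in WT, red where DESeq2 called it, with a bar at the list median and a dotted line at the median of all genes. The T cell and cytotoxic lists lie farthest to the left, with medians of -3.09 and -3.58, while the brown fat and mitochondrial lists lie slightly to the right of 0.

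Genes of dividing cells were lower in the same mice. The proliferation list had a median of -0.90 over 20 genes, with 18 under 0. Of the 20, 8 were lower at an unadjusted p under 0.05 and 6 without overlap (all genes, 5.19% and 7.76%). DESeq2 called 3 lower. *Mki67*, which encodes the Ki-67 antigen of cycling cells, was at 2.17, 10.1 and 4.97 CPM with AAV-GFP and at 0.714, 1.75 and 1.13 CPM with AAV-PRDM16. No treated mouse reached control mouse 56, and the log2 fold change was -2.27 ± 0.48 (DESeq2 adjusted p = 0.000465). *Top2a*, the topoisomerase of mitosis, was at 0.878, 3.78 and 2.22 CPM against 0.164, 0.619 and 0.684 CPM, and *Ccna2*, or cyclin A2, at 0.610, 1.32 and 1.14 CPM against 0.269, 0.321 and 0.289 CPM. DESeq2 called both lower, at adjusted p-values of 0.00963 and 0.00099. In the 6 DESeq2 runs that each left out 1 wild-type library, the adjusted p of *Mki67* was at most 0.0241.

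Summed markers of cell types place these lists beside the tissue as a whole. Macrophage markers summed to 18.5, 28.6 and 30.7 CPM in the controls and to 14.3, 17.6 and 16.2 CPM in the treated mice, without overlap. B cell markers summed to 0.556, 1.19 and 1.21 CPM against 0.445, 0.918 and 0.279 CPM, and endothelial markers to 247, 187 and 197 CPM against 189, 213 and 191.4 CPM, both with overlap. Markers of lymph node stroma summed to at most 1.29 CPM in all 6 libraries. Of these, *Glycam1* was at 0 in 6 libraries, *Cr2* in 5, *Madcam1* in 3 and *Cxcl13* in 2, while *Ccl21a* was above 0 in each. Whether a different content of immune cells between the samples accounts for the lower immune genes was not tested.

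**Figure D4:**
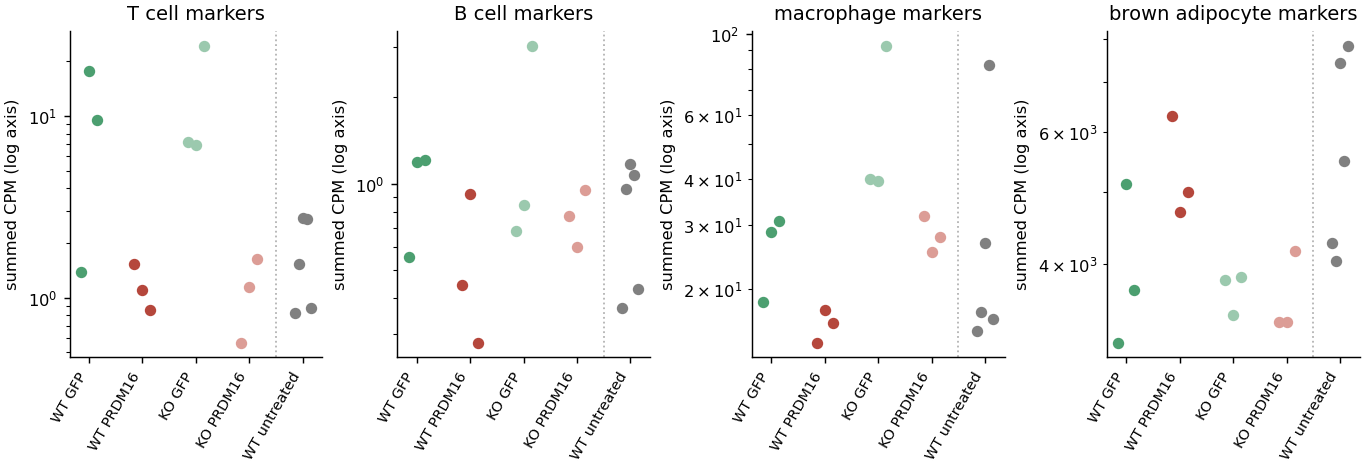
Summed CPM (log axes) of the markers of T cells, B cells, macrophages and brown adipocytes in each library of the 4 AAV groups (3 mice each) and of the 5 untreated WT mice, which were counted in another table. T cell sums of the WT AAV-GFP mice run from 1.39 to 17.7 CPM and those of the WT AAV-PRDM16 mice from 0.858 to 1.53 CPM.

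The brown adipocyte program, the best known target of PRDM16, showed differences that were small beside these. The brown fat list had a median log2 fold change of 0.16 over 24 genes, with 17 above 0. At an unadjusted p under 0.05 there was 1 higher and 1 lower, beside 7.29% of all genes. Without overlap, 3 were higher and 1 was lower, beside 14.2% of all genes. Both counts were near those shares, and DESeq2 called 0. The size of the brown fat differences rested on control mouse 65. Without it the median was 0.29, 7 genes were higher at an unadjusted p under 0.05 and 15 were higher without overlap. *Ucp1* was at 1184, 2658 and 1320 CPM with AAV-GFP and at 3531, 2450 and 2389 CPM with AAV-PRDM16. Control mouse 65 lay above treated mice 64 and 80, so the groups overlapped, and the log2 fold change of 0.70 ± 0.31 was not called (edgeR FDR 0.666, DESeq2 adjusted p = 0.367).

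*Adrb3*, the β3-adrenergic receptor through which noradrenaline activates BAT, was at 185, 225 and 181 CPM against 243, 259 and 241 CPM, without overlap. *Fabp3*, a fatty acid binding protein, was at 352, 446 and 444 CPM against 564, 483 and 589 CPM, and *Zic1*, a transcription factor that marks classical brown fat, at 5.62, 5.84 and 6.62 CPM against 7.04, 6.74 and 7.01 CPM. The treated mice were higher throughout in these 3 genes, with log2 fold changes of 0.33, 0.40 and 0.20, none of them called. They are the 3 members of the list that were higher without overlap. The 1 member lower without overlap was *Ebf2*, given below. *Cidea*, *Cox8b* and *Ppargc1a* overlapped, at log2 fold changes of 0.17, 0.22 and 0.14, and *Kcnk3* stood at -0.14. *Elovl3*, the fatty acid elongase of active brown fat, varied most, from 14.8 to 75.2 CPM in the controls and from 46.4 to 190 CPM in the treated mice.

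Mitochondrial genes leaned to the same side by small amounts. Of 78 genes of the mitochondrial ribosome, 75 were above 0, with a median of 0.13, 4 were higher at an unadjusted p under 0.05 and 19 were higher without overlap, which is 19 of 78 beside 6.39% of all genes. Nuclear genes of complex I had a median of 0.10 with 34 of 36 above 0, those of complexes II to V a median of 0.08 with 37 of 40 above 0, and mitochondrial protein import a median of 0.17 with 22 of 23 above 0. Genes of fatty acid oxidation had a median of 0.13, with 20 of 21 above 0. DESeq2 called 0 in each of these 5 lists. Without control mouse 65, 10 genes of the mitochondrial ribosome were higher at an unadjusted p under 0.05 and 37 were higher without overlap. Without treated mouse 80, the median of complex I was 0.06, with 24 of 36 above 0. That of complexes II to V was 0.03, with 25 of 40 above 0. Genes of 1 complex are regulated together and are not independent of each other, and the libraries hold 3 mice a group.

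Among single genes of lipid handling, *Plin2*, which coats lipid droplets, was at 499, 518 and 529 CPM with AAV-GFP and at 764, 657 and 669 CPM with AAV-PRDM16. The controls lay close together and every treated mouse stood above them (log2 fold change 0.44 ± 0.13, edgeR FDR 0.459, DESeq2 adjusted p = 0.08). *Hadha* and *Hadhb*, the subunits of the mitochondrial trifunctional protein, were higher without overlap by log2 fold changes of 0.15 and 0.13. *Acsl1*, the acyl-CoA synthetase that activates fatty acids, was at 2082, 2847 and 2665 CPM against 3856, 2671 and 2999.8 CPM, which overlapped.

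Partners and regulators of PRDM16 differed by small amounts. Their list had a median of -0.08 over 19 genes, with 1 lower at an unadjusted p under 0.05 and DESeq2 calling 0. *Ebf2*, a factor that opens brown fat enhancers and recruits PPARγ, was at 73.2, 71.9 and 74.1 CPM in the controls and at 58.96, 62.6 and 58.8 CPM in the treated mice, a log2 fold change of -0.28 ± 0.10 (edgeR FDR 0.55). *Gtf2ird1*, a partner of PRDM16 and EHMT1 in repression, was at 55.4, 55.5 and 53.8 CPM against 71.7, 63.99 and 67.3 CPM (0.30 ± 0.15). *Irf4*, which works with PGC-1α in thermogenesis and also serves lymphocytes, was at 10.4, 11.7 and 13.3 CPM against 8.15, 8.10 and 8.56 CPM. These 3 were the members without overlap, lower for *Ebf2* and *Irf4* and higher for *Gtf2ird1*. A count of 3 of 19 is near the 14.2% of all genes that did not overlap. *Pparg*, the master regulator of fat cells, overlapped at 171, 199 and 188 CPM against 193.6, 189.6 and 227 CPM.

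White fat genes had a median of 0.02 over 17 genes, and collagen and fibrosis genes a median of -0.21 over 25. Mature skeletal muscle genes had a median of 0.73 over 32, but this rested on treated mouse 64, whose muscle fibre markers stood at 16.3 CPM, and the median was -0.22 when that library was left out. Without mouse 64, DESeq2 called 158 genes, and 86 of them were among the 152. Endothelial genes had a median of -0.08 over 18.

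Both viruses were also given to CPEB2-KO males, 3 mice each, with the same dose and times. The KO comparison shares no library with the wild-type one. *Prdm16* was at 31.7, 34.5 and 31.7 CPM in KO mice with AAV-GFP and at 69.2, 128 and 73.6 CPM in those with AAV-PRDM16, a log2 fold change of 1.47 ± 0.34. edgeR called 0 genes in KO at an FDR of 0.05, with 1211 (6.41%) at an unadjusted p under 0.05, and DESeq2 called 266 (1.44%). The difference between the effects in WT and KO was tested as an interaction. edgeR called 0 genes at an FDR of 0.05, the smallest being 0.712, with 603 (3.19%) at an unadjusted p under 0.05, and DESeq2 called 1, *Gm13340*.

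Of the 134 genes that DESeq2 called lower in WT, 123 (91.8%) were also under 0 in KO, where their median was -1.996. With the same sign, 99 had an unadjusted p under 0.05 in KO, beside 6.41% of all genes in either direction. Over all genes, 55.03% had the same sign in WT and KO. In the KO comparison, AAV-GFP mouse 69 stood apart from its group, with the highest T cell, macrophage and B cell markers of the 12 libraries. Without it, 90.3% of the 134 were under 0 and their median was -1.30. The count of 99 includes mouse 69 and was not repeated without it. Of the 18 genes called higher in WT, 7 had the same sign in KO, with a median of -0.07, and 9 without mouse 69.

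**Figure D5:**
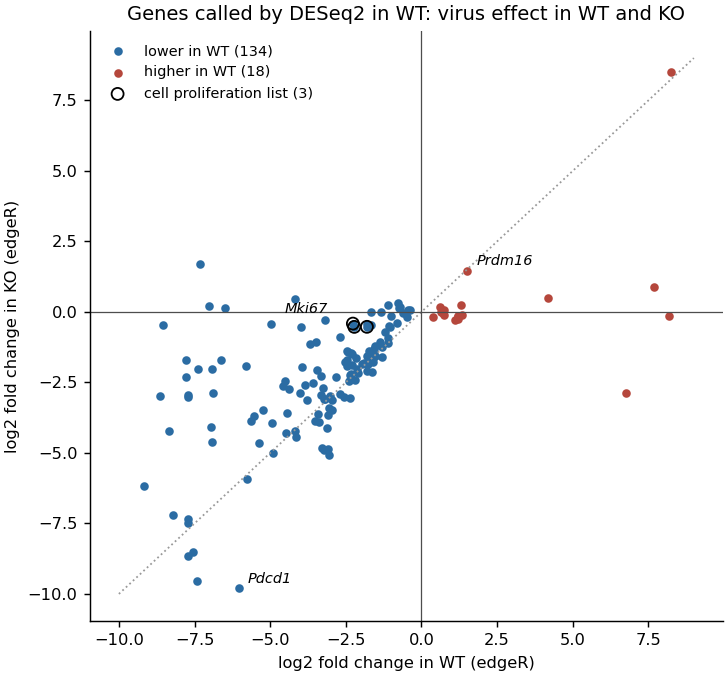
The 152 genes that DESeq2 called in WT, with the edgeR log2 fold change of AAV-PRDM16 over AAV-GFP in WT on the horizontal axis and in KO on the vertical axis, blue where lower and red where higher in WT. *Prdm16* lies on the dotted line of equal effect (1.52 and 1.47), most blue points lie in the lower left, and the 3 circled proliferation genes lie near 0 in KO.

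The medians of the immune lists can be set side by side in both genotypes, without a test of their likeness. The T cell list stood at -3.09 in WT and -3.03 in KO, the cytotoxic list at -3.58 and -3.25, MHC class II at -1.34 and -1.65, the GBP and IRG list at -1.04 and -1.32, and macrophages at -1.01 and -1.25. The B cell list stood at -0.74 and -1.22, and the 4 neutrophil genes at 0.67 and -1.06, on opposite sides of 0. Without KO mouse 69 the KO medians of the first 5 were -2.13, -2.34, -0.99, -0.80 and -0.47. *Cd3e* in KO was at 1.47, 1.61 and 3.93 CPM with AAV-GFP and at 0.119, 0.342 and 0.184 CPM with AAV-PRDM16, where all 3 controls were high. Summed T cell markers in KO ran from 6.90 to 24.2 CPM with AAV-GFP and from 0.565 to 1.64 CPM with AAV-PRDM16.

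For some genes the values in WT and KO differed more. *Mki67* had a log2 fold change of -2.27 in WT and -0.42 in KO, where its levels were 11.6, 6.85 and 9.63 CPM against 7.18, 5.86 and 8.04 CPM, with overlap. *Top2a* stood at -2.22 and -0.53, and *Ccna2* at -1.80 and -0.53. The difference of the effects had unadjusted edgeR p-values of 0.0139, 0.0477 and 0.0155 for these 3 genes and was called for none (FDR 1). *Irf1* was at 21.96, 22.2 and 27.7 CPM against 19.2, 18.8 and 16.1 CPM in KO, without overlap, and its log2 fold changes of -0.82 in WT and -0.41 in KO differed at an unadjusted p of 0.0301 (FDR 1).

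*Slc43a2*, *Gab2* and *Plin2* stood at 0.75, 0.72 and 0.44 in WT and at -0.12, -0.04 and -0.21 in KO. For *Ucp1* the values were 0.70 and -0.08, with 1947, 1576 and 2193 CPM against 1574, 1373 and 2477 CPM in KO. None of these differences between the genotypes was called by edgeR (FDR 1 for each).

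Untreated CPEB2-WT mice of 21 to 25 weeks (n = 5) were counted in another table of the series, and give the level without a virus. That cohort and the absence of virus cannot be told apart, the tables were scaled separately, and 2 of the 5 libraries lacked Y-linked transcripts although labelled male. *Prdm16* ran from 15.7 to 38.7 CPM in them, with a median of 28.1 CPM, close to the AAV-GFP mice. *Cd3e* ran from 0.115 to 0.573 CPM and *Cd8a* from 0.0613 to 0.286 CPM, which lies near the AAV-PRDM16 mice and AAV-GFP mouse 56 and below AAV-GFP mice 65 and 89. *Gbp2* ran from 13.2 to 26.0 CPM and *Cxcl9* from 6.39 to 20.4 CPM, while *Irf1* ran from 12.8 to 63.4 CPM. Summed T cell markers were 0.823 to 2.75 CPM in the untreated mice.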

How the data were processed

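Interscapular BAT of each mouse gave 1 mRNA library, and the 6 CPEB2-WT libraries that received AAV-PRDM16 or AAV-GFP were compared. The authors deposited whole-number counts per Ensembl gene, without normalization, for all 12 AAV libraries in 1 table. The submitters' processing notes name bcl2fastq 2.20, Trimmomatic 0.36, HISAT2 and GRCm38.p6, and the counting tool and its handling of strand are not given in the sources used here. Genes at 4 counts outnumbered those at 3 in every library, and 13 of the 12458 genes with a median count over 100 were at 0 in a library, so the deposited counts may have passed a further step, and single zeros are uncertain. Of the 55487 identifiers, 55227 matched GENCODE M21 for symbols.

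Counts were filtered by filterByExpr, scaled by TMM and fitted over all 12 libraries by edgeR's quasi-likelihood test (edgeR 4.0.16, R 4.3.3), two-sided, with Benjamini-Hochberg adjustment over 18899 genes and contrasts for WT, KO and their difference. DESeq2 1.42.0 and limma 3.58.1 served as alternatives, with RLE scaling, other filters, the WT libraries alone, the replicate number as a block, removal of GC and length trends and each library left out. A fold change is on the log2 scale, ± its SE. Each mouse was 1 replicate, pairs of libraries differed by more than counting noise, and p-values measure the spread between these mice. Calculations were tested on simulated data.

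The members and the 42 gene lists were chosen with earlier results of these data known. Named were *Prdm16* and *Cpeb2*; at most 12 genes in each direction, ranked by size among edgeR calls, filled from DESeq2 calls without overlap at a mean of at least 1 CPM and then by smallest p; and of each list the 6 highest members, those at an FDR of at most 0.5 or called by DESeq2, and defining markers. *Gtf2ird1*, *Ebf2*, *Ciita*, *Igtp* and *Rsad2* were named after their values were seen. RefSeq promoter windows were of GRCm38.p6. A few genes that the rule names are not reported here.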

Additional observations from a re-analysis of the deposited data

Results flagged for a closer look

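In the untreated CPEB2-WT mice, 1 mouse, replicate 4, lay far from the other 4. *Lyz2* was at 20.6, 15.9, 43.2 and 20.3 CPM in 4 mice and at 203 CPM in replicate 4, and the gap of this mouse to its nearest neighbour took 0.854 of the whole range, above Dixon's critical value of 0.71 for 5 samples. *Irf1* was at 14.8, 19.3, 20.5 and 12.8 CPM in the same 4 mice and at 63.4 CPM in replicate 4, with a gap of 0.847 of the range. Chance alone passes this limit in about 1 of 20 groups. Summed over the whole lists, the highest untreated library stood at 541 CPM for macrophage genes and 489 CPM for MHC class II genes, against medians of 97.7 and 107.7 CPM over the 5. The library of replicate 4 also held Xist at 14.02 CPM beside Y-linked transcripts at 116 CPM, and the part of this in its values was not tested. Replicate 4 therefore sets the upper ends of the untreated ranges of *Lyz2* and *Irf1*, and the other 4 untreated mice had *Irf1* between 12.8 and 20.5 CPM.

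*Pak1ip1* in WT was at 29.9, 31.1 and 30.2 CPM with AAV-GFP and at 44.5, 35.5 and 38.4 CPM with AAV-PRDM16, above every control. In KO it was at 31.8, 34.6 and 32.7 CPM with AAV-GFP and at 28.4, 29.4 and 29.7 CPM with AAV-PRDM16, below every control. The 2 log2 fold changes, 0.38 in WT and -0.18 in KO, differed by 0.56 ± 0.13 (SE), with an unadjusted edgeR p of 0.00111 and an FDR of 1.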

How the results depend on the processing

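The median log2 fold change of all genes stayed between -0.03 and -0.003 in every setting. Of the 42 list medians, 29 kept their sign in all 21 alternatives, as did 15 of the 17 over 0.3 in size. The other 2, neutrophils and mature skeletal muscle, turned. At an FDR of 0.05, where edgeR called 0 genes, DESeq2 called 152 and limma-voom 1 (*Irf1*), and 0 to 2 were called with 1 library left out (*Fgf2* and *Lyz1* without WT AAV-GFP mouse 56, and 1 gene with no symbol without mouse 65). The 275 genes at 2-fold and an FDR of 0.5 became 582 by DESeq2, 526 by limma-voom, 75 without a filter on low counts, and 0 to 530 with 1 library left out, 0 of them without mouse 89. Genes without overlap numbered 2695 to 5552 with 1 library left out, where fewer samples separate more easily. DESeq2 called between 38 (without mouse 89) and 317 genes (without mouse 56), and of its 152 genes 36 and 133 remained. These runs were added after seeing the data. For the difference between WT and KO, DESeq2 called 1 gene, and 0 to 1 were called with 1 library left out. *Prdm16* passed under DESeq2 (1.53, adjusted p = 0.00164), and its log2 fold change ran from 1.31 to 1.85 with 1 library left out. Single genes reversed only with 1 library left out: *Cpeb2* to 0.068 and 0.074 without WT AAV-GFP mouse 65 and AAV-PRDM16 mouse 80 (lowest value -0.13), *Rsad2* to 0.0046 without mouse 80 (lowest -0.25), and *Ppargc1a* to -0.027 and -0.030 without AAV-GFP mice 56 and 89 (highest 0.56). With 1 WT library left out, the circadian clock median ran from -0.21 to -0.06. The cause of these changes was not tested. With the replicate number as a block, 40 genes stood at 2-fold and an FDR of 0.5 and no other call changed. Same-numbered AAV-GFP and AAV-PRDM16 mice had correlations of -0.12, -0.10 and 0.20 of their deviations from the group means, so the numbers were not taken to pair the mice. With 3 mice a group, an exact permutation test cannot go below p = 0.1, and genes under 1 CPM rest on few counts for their spread.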

Other observations

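Transcripts of plasma cells varied between mice in both groups. *Igkc*, the κ light chain constant region, was at 6.91, 44.7 and 51.7 CPM with AAV-GFP and at 2.44, 21.9 and 2.52 CPM with AAV-PRDM16, and *Jchain*, which joins secreted antibodies, at 4.38, 16.7 and 27.8 CPM against 1.59, 10.9 and 1.72 CPM. Treated mouse 64 lay above control mouse 56 for both, and neither was called (log2 fold changes -1.95 and -1.79, DESeq2 adjusted p = 0.585 and 0.619). The DNA sensor gene *Cgas* was at 0.869, 0.936 and 0.761 CPM against 0.257, 0.332 and 0.405 CPM, with the groups apart and control mouse 56 as high as the others. Its log2 fold change of -1.36 ± 0.41 was not called (edgeR FDR 0.468, DESeq2 adjusted p = 0.111).

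Genes of the circadian clock had a median log2 fold change of -0.13 over 18 genes, with DESeq2 calling 0. *Per3*, a repressor of the clock, was at 51.9, 61.7 and 54.3 CPM with AAV-GFP and at 34.5, 44.3 and 37.1 CPM with AAV-PRDM16, and *Clock*, an activator, at 67.2, 60.2 and 57.4 CPM against 73.9, 70.2 and 70.9 CPM. Both were without overlap, at log2 fold changes of -0.53 and 0.22, and neither was called. Immediate early genes, which respond within minutes to stimulation and handling, had a median of -0.48 over 17 genes, of which 15 were under 0, but the median was -0.24 without control mouse 65 and -0.16 without control mouse 89. *Nr4a1*, an orphan nuclear receptor of this class, was at 10.0, 55.9 and 55.7 CPM against 38.7, 11.5 and 30.7 CPM, with overlap. The hour at which tissue was taken was not given in the sources used here.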
